A study of Arabidopsis thaliana with 29 samples.

Results

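Gibberellins are growth hormones of plants, and the active forms are made and removed by small families of oxidases. GA 20-oxidases and GA 3-oxidases carry out the last steps of synthesis, and GA 2-oxidases inactivate the hormone. The 9 genes described here were taken by name and identifier, out of 33602 genes counted: *GA20OX1*, *GA20OX2* and *GA20OX3*, *GA3OX1* and *GA3OX2*, and *GA2OX1*, *GA2OX2*, *GA2OX6* and *GA2OX8*. Polycomb group (PcG) proteins hold genes silent in the tissues or stages where they are not used. Polycomb repressive complex 2 (PRC2) does so by placing trimethylation on lysine 27 of histone H3 (H3K27me3), and PRC1 binds or ubiquitinates chromatin.

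Transcripts were measured by RNA-seq and H3K27me3 by ChIP-seq in *Arabidopsis thaliana* seedlings of the Col-0 ecotype at 2 weeks, with 16 h of light. The mutants were *clf-29* (a PRC2 methyltransferase), the LHP1 mutant lines *tfl2-2* and *lhp1-6* (LHP1 binds H3K27me3), *atbmi1a,b* and *atring1a,b* (PRC1 subunits), *clf-29swn-21* (both PRC2 methyltransferases of the seedling), and *swn-21*, set against Col-0. Each group has 2 RNA-seq files, and *clf-29swn-21* and *swn-21* have no peak list here. *tfl2-2* and *lhp1-6* are 1 library each and form 1 group of 2 alleles. The labels give seedlings without roots throughout, whereas in the Methods *clf-29swn-21* plants were raised on medium and harvested whole, and the other genotypes were raised in soil. By the Methods, genotype thus cannot be told apart from medium and harvest in any contrast of *clf-29swn-21*. The Methods call the replicates of *clf-29*, *atbmi1a,b* and *atring1a,b* RNA-seq biological, and the labels do not say which libraries came from separate cultures. The p-values measure the spread between these libraries. The Methods do not say whether the pairs of *clf-29swn-21*, *swn-21* and Col-0 are biological replicates. The Col-0 and *clf-29swn-21* pairs differed by more than sampling noise (mean chi-square 23.4 and 13.2 per gene).

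The RNA libraries held 17277027 to 36205758 counts on genes. The pair of *swn-21* files did not differ by more than sampling noise on average (mean chi-square 0.986 per gene) and was counted as 1 library, leaving 13 libraries. Growth temperature is 21 °C in the labels of the first and 22 °C in those of the second RNA library of Col-0, *clf-29*, *atbmi1a,b*, *atring1a,b* and *clf-29swn-21*. It is 21 °C for the RNA of both LHP1 mutant lines and 22 °C for *swn-21*. Temperature and replicate thus cannot be told apart. The ChIP-seq labels follow the same pattern, except that *lhp1-6* is labelled 22 °C. *CLF* had 0.689 and 0.434 CPM (counts scaled to a library total of 1000000 counts on genes) in *clf-29* and 1.72 and 2.60 CPM in *clf-29swn-21*, against 37.4 and 27.8 CPM in Col-0. *LHP1* had 0 CPM in *tfl2-2* and 1.71 CPM in *lhp1-6*, against 27.6 and 34.1 CPM in Col-0. *SWN* was not lower in the libraries labelled *swn-21* (87.7 CPM) or *clf-29swn-21* (131 and 115 CPM) than in Col-0 (46.8 and 68.2 CPM), so these gene counts do not check that allele. *AtBMI1A* in *atbmi1a,b* (14.1 and 22.1 CPM, against 10.7 to 13.97 CPM in Col-0) and *AtRING1A* in *atring1a,b* (631 and 813 CPM, against 13.9 and 17.8 CPM in Col-0) were not lower either, whereas *AtBMI1B* and *AtRING1B* were. The Methods state that RNA-seq data were used to check the genotype of every sample. Counts of whole genes do not show which exons were read.

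All positions are on TAIR10. *GA20OX3* (AT5G07200) lies on the minus strand at chr5:2243553-2245339, with 3 exons and 1 transcript. *GA2OX8* (AT4G21200) lies on the plus strand at chr4:11302682-11306770, and *GA2OX6* (AT1G02400) on the plus strand at chr1:486800-489651. *GA3OX1* (AT1G15550) is at chr1:5344388-5346342, *GA3OX2* (AT1G80340) at chr1:30200466-30202349, *GA20OX1* (AT4G25420) at chr4:12990851-12992585, *GA20OX2* (AT5G51810) at chr5:21055179-21056881 and *GA2OX1* (AT1G78440) at chr1:29511561-29513100, all on the minus strand, and *GA2OX2* (AT1G30040) at chr1:10537457-10540044 on the plus strand. None of the 9 genes overlapped another annotated gene, with 0 overlapping genes each.

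The 250 bases before the annotated start are shown for *GA20OX3* and *GA2OX8*, the genes with H3K27me3 in the most peak lists, and for *GA20OX2* and *GA2OX6*, which share a motif. Capitals mark motifs, and the sequences are read 5′ to 3′ towards the gene from the RefSeq TAIR10.1 assembly, whose nuclear chromosomes are those of TAIR10.
GA20OX3, chr5:2245340-2245589, minus strand: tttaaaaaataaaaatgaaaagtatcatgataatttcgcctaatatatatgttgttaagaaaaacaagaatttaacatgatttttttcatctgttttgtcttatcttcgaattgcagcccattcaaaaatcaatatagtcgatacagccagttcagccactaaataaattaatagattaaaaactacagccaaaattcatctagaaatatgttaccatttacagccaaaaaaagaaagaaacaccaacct
GA2OX8, chr4:11302432-11302681, plus strand: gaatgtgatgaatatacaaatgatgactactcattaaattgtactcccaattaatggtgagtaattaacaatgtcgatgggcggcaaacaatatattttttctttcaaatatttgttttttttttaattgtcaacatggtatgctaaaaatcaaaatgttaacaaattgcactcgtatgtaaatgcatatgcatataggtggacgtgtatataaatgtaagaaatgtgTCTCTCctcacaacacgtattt
GA20OX2, chr5:21056882-21057131, minus strand: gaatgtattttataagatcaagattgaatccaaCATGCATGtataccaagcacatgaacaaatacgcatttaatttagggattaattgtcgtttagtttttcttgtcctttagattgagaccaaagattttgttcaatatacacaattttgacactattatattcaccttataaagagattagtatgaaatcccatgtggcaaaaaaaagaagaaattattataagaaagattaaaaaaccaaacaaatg
GA2OX6, chr1:486550-486799, plus strand: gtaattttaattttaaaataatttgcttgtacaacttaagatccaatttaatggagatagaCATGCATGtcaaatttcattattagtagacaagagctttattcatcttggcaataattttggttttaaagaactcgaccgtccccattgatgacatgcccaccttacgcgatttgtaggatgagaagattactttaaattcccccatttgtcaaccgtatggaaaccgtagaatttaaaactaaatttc

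The windows of all 9 genes were searched on both strands for 5 motifs. The RY motif CATGCA, bound by B3 factors of the seed, was present in 2 of 9 (*GA20OX2* and *GA2OX6*, in both as overlapping matches on the 2 strands), against 8.51% of 26712 windows of protein-coding genes. The GAGA motif GAGAGA was present in 1 of 9 (*GA2OX8*, on the opposite strand), against 20.4%. The telobox AAACCCTA (4.45% of windows), the G-box CACGTG (6.58%) and the KNOX motif TGACAG (5.86%) were in 0 of the 9, and *GA20OX3* held none of the 5. A match is a description of these letters and not a binding site.

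Levels were expressed as CPM of the counts on genes and, between genes, as CPM per kb of exon. In *clf-29swn-21*, *GA20OX3* stood first at 24.9 ± 7.66 CPM per kb (SD, n = 2), with no overlap with *GA2OX2* in second place at 5.08 ± 0.0375. In Col-0, *GA2OX6* had the highest level per kb at 21.3 ± 9.22 CPM per kb (SD, n = 2), and its library values did not overlap those of *GA2OX2* at 5.79 ± 3.21. *GA3OX1* (3.56 CPM per kb), *GA20OX1* (3.32), *GA20OX2* (2.30), *GA2OX1* (0.575), *GA2OX8* (0.453) and *GA3OX2* (0.125) followed, and *GA20OX3* was last at 0.0932. From *GA2OX2* down, each gene's library values overlapped those of the next, so that part of the order lies within the replicate spread.

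**Figure D1:**
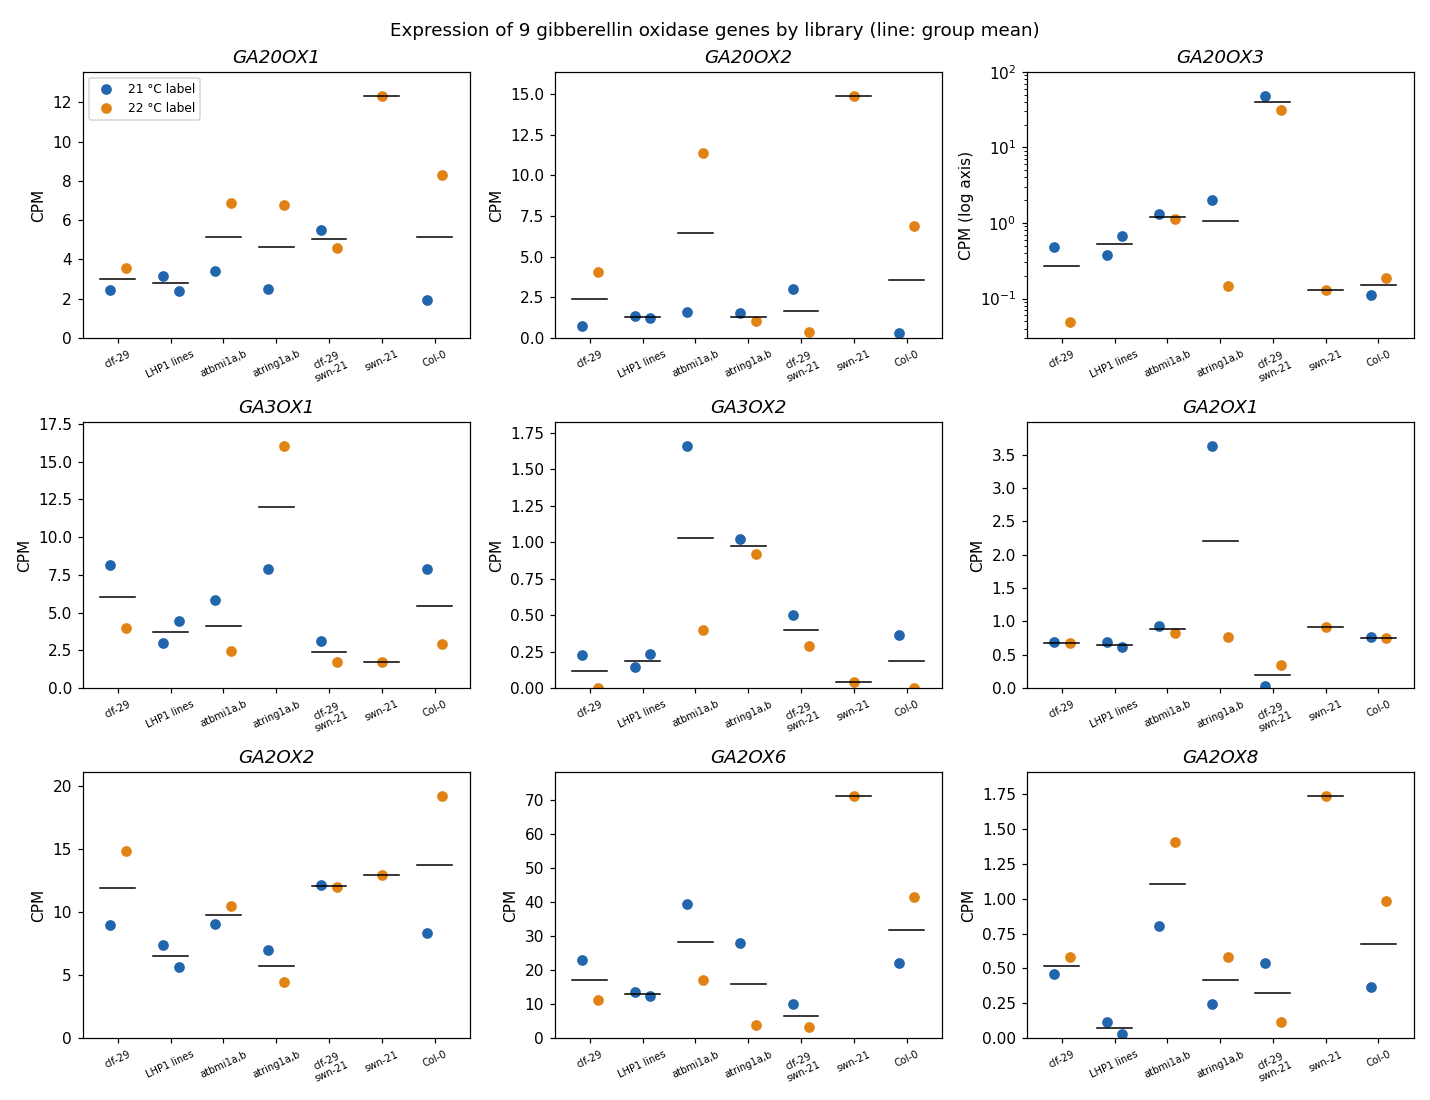
Expression of the 9 gibberellin oxidase genes in CPM by library, with *GA20OX3* on a log axis. Points are libraries coloured by the growth temperature of the labels, lines are group means, and *swn-21* is its pair of files summed. The *clf-29swn-21* libraries of *GA20OX3* lie at 48.7 and 31.3 CPM, above every other library.

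*GA20OX3*, a GA 20-oxidase, was the member with the greatest difference. It had 48.7 and 31.3 CPM in *clf-29swn-21* (1360 and 540 counts), against 0.113 and 0.187 CPM in Col-0 (4 counts in each). The lowest *clf-29swn-21* library was thus far above the highest Col-0 library. *GA20OX3* rose in *clf-29swn-21* by 7.86 ± 1.28 on the log2 scale (SE, adjusted p = 0.00314, edgeR quasi-likelihood test with Benjamini-Hochberg adjustment), and over the Col-0 library of the same labelled temperature it was 432-fold higher at 21 °C and 167-fold higher at 22 °C. In bulk seedlings, more cells expressing the gene and more RNA per cell cannot be told apart. By the Methods, the genotype of *clf-29swn-21* cannot be told apart from its medium and harvest either.

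In the other mutants *GA20OX3* stayed below 2 CPM. It had 1.298 and 1.119 CPM in *atbmi1a,b* and 1.99 and 0.145 CPM in *atring1a,b*, against 0.113 and 0.187 CPM in Col-0. Both *atbmi1a,b* libraries lay above both Col-0 libraries, whereas the second *atring1a,b* library lay between them. *GA20OX3* was higher in *atbmi1a,b* by 2.97 ± 1.15 (log2, SE, adjusted p = 0.663, edgeR) and in *atring1a,b* by 2.78 ± 1.15 (adjusted p = 0.506, edgeR), and neither passed the adjusted threshold. The 10 seed markers, genes of seed storage and maturation, summed to 184 and 30.8 CPM in *atbmi1a,b*, against 7.63 and 0.234 CPM in Col-0, with 9 of 10 called higher and 0 of 10 by the adjusted p, and their part in the *GA20OX3* values was not tested. The *atbmi1a,b* call was lost with any 1 library of the comparison left out, although the log2 difference stayed between 2.59 and 3.33. Without the first *atring1a,b* library the log2 difference was -0.036. It had 0.488 and 0.0483 CPM in *clf-29*, 0.373 CPM in *tfl2-2*, 0.676 CPM in *lhp1-6* and 0.131 CPM in *swn-21*.

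Calls followed the rule of the study, which asks for an unadjusted p under 0.05 and a change of more than 1 on the log2 scale, up or down. The count that also passed a Benjamini-Hochberg adjusted p of 0.05 follows each time. In *clf-29swn-21* against Col-0, 3 of 9 members were called (1 higher, 2 lower), against 30.6% of all 22244 genes tested (15.6% higher, 15% lower), and 1 of 9 passed the adjusted p, against 24.1%. The share of members called was thus near that of all genes. The members' median log2 difference was -1.17, against 0.0 for all genes.

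The pair of lower calls were GA 2-oxidases. *GA2OX6* had 9.98 and 3.24 CPM in *clf-29swn-21*, against 22.1 and 41.6 CPM in Col-0. It fell by 2.48 ± 0.906 on the log2 scale (SE, adjusted p = 0.0743, edgeR). It lost the call without the second Col-0 library (-1.93) or without the second *clf-29swn-21* library (-1.89), and had an adjusted p of 0.0193 with growth temperature as a term. *GA2OX1* had 0.0358 and 0.347 CPM in *clf-29swn-21*, against 0.760 and 0.748 CPM in Col-0, and fell by 2.29 ± 0.957 (adjusted p = 0.111, edgeR). The first of those *clf-29swn-21* values is 1 count, and without that library the log2 difference was -1.28 and not called. The call was lost in 6 of 11 alternatives.

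The other members of *clf-29swn-21* did not pass. *GA3OX1*, a GA 3-oxidase, had 3.11 and 1.74 CPM in *clf-29swn-21*, against 7.88 and 2.94 CPM in Col-0 (log2 difference -1.37 ± 0.678, adjusted p = 0.171, edgeR). *GA2OX2* had 12.2 and 12.0 CPM in *clf-29swn-21*, against 8.39 and 19.2 CPM in Col-0. *GA20OX1* had 5.47 and 4.57 CPM and *GA20OX2* 3.01 and 0.347 CPM in *clf-29swn-21*, against 1.94 and 8.32 CPM and 0.310 and 6.87 CPM in Col-0. For both genes the Col-0 libraries lay on either side of the *clf-29swn-21* libraries.

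Marker genes of other organs and of green tissue moved in the same *clf-29swn-21* libraries. The seed markers summed to 15799 and 23932 CPM in *clf-29swn-21*, against 7.63 and 0.234 CPM in Col-0, and the 10 flower markers to 469 and 659 CPM, against 3.27 and 2.99 CPM. All 10 of each list were called higher. The 20 root markers summed to 3553 and 1709 CPM in *clf-29swn-21*, against 350 and 581 CPM in Col-0, and without *PYK10*, the most abundant of them, the other 19 summed to 111 and 27.9 CPM, against 2.14 and 5.33 CPM. Of the 15 root markers tested, 12 were called higher, 8 of them with an adjusted p under 0.05. Some passed the count filter only through the *clf-29swn-21* libraries, such as *RHD6* (2.95 to 7.91 CPM there, 0 CPM in Col-0). The share of 12 of 15 is thus a description and not a test. With and without *PYK10* the root sum was larger in the first *clf-29swn-21* library. The 5 green-tissue markers, genes of Rubisco and the antenna, summed to 2856 and 4108 CPM in *clf-29swn-21*, against 10560 and 11755 CPM in Col-0, and 5 of 5 were called lower, all with an adjusted p under 0.05. The part of these tissues in the *GA20OX3*, *GA2OX6* and *GA2OX1* values was not tested.

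Set against the single mutant *clf-29*, *GA20OX3* was again the called member. It had 48.7 and 31.3 CPM in *clf-29swn-21*, against 0.488 and 0.0483 CPM in *clf-29*, and was higher by 6.88 ± 1.19 on the log2 scale (SE, adjusted p = 0.00426, edgeR). In this comparison 1 of 9 members was called, against 31.6% of genes tested, and 1 of 9 by the adjusted p, against 24.8%. These contrasts share the *clf-29swn-21* libraries with the one against Col-0.

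In the LHP1 mutant lines, 2 of 9 members were called, both lower, against 3.37% of genes in either direction and 1.52% lower, and 0 of 9 passed the adjusted p, against 0.0405%. The flower markers summed to 190 CPM in *tfl2-2* and 219 CPM in *lhp1-6*, against 3.27 and 2.99 CPM in Col-0, with 9 of 10 called higher and 4 of 10 by the adjusted p, and their part in the values of the members was not tested. *GA2OX8* had 0.115 CPM in *tfl2-2* and 0.0294 CPM in *lhp1-6*, against 0.366 and 0.982 CPM in Col-0. The value in *lhp1-6* is 1 count. *GA2OX8* fell by 3.20 ± 0.982 on the log2 scale (SE, adjusted p = 0.767, edgeR), and without the second Col-0 library the difference was -2.34 and not called, as it was without *lhp1-6* (-2.58). *GA2OX2* had 7.37 CPM in *tfl2-2* and 5.70 CPM in *lhp1-6*, against 8.39 and 19.2 CPM in Col-0, and fell by 1.15 ± 0.423 (adjusted p = 0.978, edgeR). The RNA libraries of both LHP1 lines are labelled 21 °C, and without the Col-0 library labelled 22 °C the difference in *GA2OX2* was -0.42 and not called. With growth temperature as a term it was -0.92, and the call was lost in 5 of 10 alternatives.

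In *atbmi1a,b*, 1 of 9 members was called, higher, against 5.02% of genes in either direction and 3.7% higher, and 0 of 9 by the adjusted p, against 0.548%. In *atring1a,b*, 2 of 9 members were called, 1 in each direction, against 6.81% of genes (4.65% higher and 2.16% lower), and 0 of 9 by the adjusted p, against 0.76%. *GA2OX2* had 6.98 and 4.50 CPM in *atring1a,b*, against 8.39 and 19.2 CPM in Col-0. It fell by 1.37 ± 0.426 on the log2 scale (SE, adjusted p = 0.292, edgeR), and without the second Col-0 library the difference was -0.63 and not called. Without the second *atring1a,b* library it was -1.13 and not called, and the call was lost in 3 of 11 alternatives. *GA3OX1* had 7.92 and 16.0 CPM in *atring1a,b*, against 7.88 and 2.94 CPM in Col-0, and *GA3OX2* 1.02 and 0.920 CPM, against 0.366 and 0 CPM. Neither was called (log2 difference 1.07 ± 0.663 for *GA3OX1* and 2.18 ± 1.29 for *GA3OX2*, edgeR). *GA2OX1* was 3.63 CPM in the first *atring1a,b* library and 0.774 CPM in the second, against 0.760 and 0.748 CPM in Col-0. The seed markers summed to 3292 and 207 CPM in the same *atring1a,b* libraries, against 7.63 and 0.234 CPM in Col-0, with 10 of 10 called higher and 1 of 10 by the adjusted p, and their part in the values of the members was not tested.

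In *clf-29*, 0 of 9 members were called by edgeR and by DESeq2, against 2.21% of genes and 0.018% by the adjusted p, and 0 of 9 had an unadjusted p under 0.05. The largest log2 difference was 0.98 ± 1.22 in *GA20OX3*. In *swn-21*, whose 1 summed library was assumed to vary like the other groups, 0 of 9 members were called by edgeR and by DESeq2, against 1.37% of genes and 0% by the adjusted p, and 0 of 9 had an unadjusted p under 0.05. *GA2OX6* was 71.1 CPM in *swn-21*, against 22.1 and 41.6 CPM in Col-0, *GA20OX1* 12.3 CPM, against 1.94 and 8.32 CPM, and *GA20OX2* 14.9 CPM, against 0.310 and 6.87 CPM. Each was above both Col-0 libraries, and over the Col-0 library labelled 22 °C the folds were 1.71 for *GA2OX6*, 1.48 for *GA20OX1* and 2.17 for *GA20OX2*. Between *atring1a,b* and *atbmi1a,b*, 0 of 9 members were called by edgeR and 1 of 9 by DESeq2, against 5.64% of genes and 0.0674% by the adjusted p, and 0 of 9 had an unadjusted p under 0.05 in edgeR. *GA3OX1* was nearest, with 7.92 and 16.0 CPM in *atring1a,b*, against 5.83 and 2.45 CPM in *atbmi1a,b* (adjusted p = 0.571, edgeR).

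**Figure D2:**
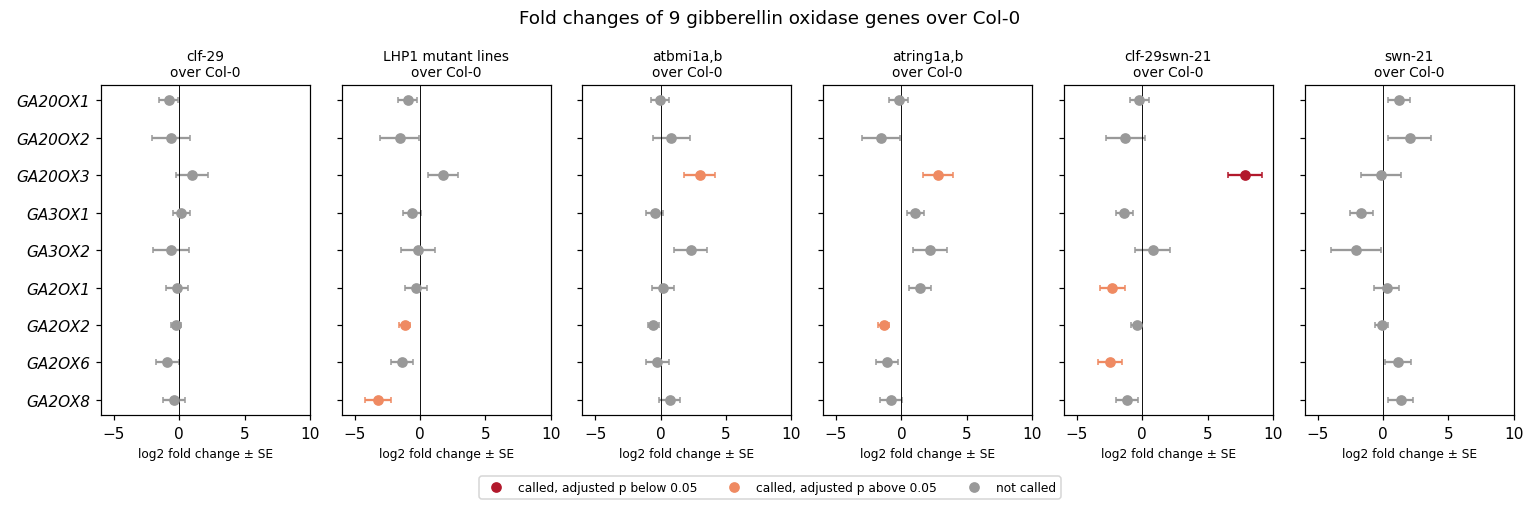
Log2 fold changes of the 9 genes over Col-0 in each mutant, with bars for the SE of the edgeR fit. Only *GA20OX3* in *clf-29swn-21* (7.86) was called with an adjusted p under 0.05.

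The libraries of 1 group differed widely for genes of synthesis and of inactivation. *GA2OX6*, a GA 2-oxidase, had 28.0 and 3.82 CPM in the *atring1a,b* libraries labelled 21 °C and 22 °C. It had 39.5 and 17.1 CPM in those of *atbmi1a,b*, whereas in Col-0 the 22 °C library was the higher one (22.1 and 41.6 CPM). *GA20OX2* had 0.746 and 4.05 CPM in the *clf-29* libraries labelled 21 °C and 22 °C, 1.60 and 11.4 CPM in those of *atbmi1a,b*, and 0.310 and 6.87 CPM in those of Col-0. In *atring1a,b* (1.55 and 1.02 CPM) and *clf-29swn-21* (3.01 and 0.347 CPM) the 22 °C library was the lower one. *GA20OX1* was higher in the 22 °C library of *clf-29*, *atbmi1a,b*, *atring1a,b* and Col-0, with 2.47 and 3.57 CPM at 21 °C and 22 °C in *clf-29* and 1.94 and 8.32 CPM in Col-0, and lower in that of *clf-29swn-21*.

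H3K27me3 was read as the peaks that the authors called in each library, taken from 1000 bp upstream of a gene to its end. *GA20OX3* had a peak in 9 of 10 lists, as did *GA2OX8*, and both lacked one in the second Col-0 list. Peaks in 9 or 10 lists were found for 2700 of 32835 genes (8.22%). Lists held 2209 (second *atring1a,b*) to 7523 (*lhp1-6*) peaks, and the peak lists hold no reads, so a missing peak is not a measure of the level of the mark.

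Over *GA20OX3* the peak covered almost the whole gene. In the 9 lists it spanned 1909 to 3008 bp, covered at least 94.0% of the gene body and started 222 to 764 bp upstream, so that the window of 250 bases printed above lay wholly within it in 7 of 9 lists. In the first Col-0 list the peak lay at chr5:2243567-2245694. No peak list was analysed for *clf-29swn-21*, the genotype in which *GA20OX3* rose.

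Over *GA2OX8* the peak sat at the 5′ end. It covered from 14.2% to 29.2% of the gene body and reached 581 to 1192 bp into the gene, and the printed window lay within it in 9 of 9 lists. *tfl2-2* and *lhp1-6* held a second peak in the 3′ part, over 35.7% and 16.9% of the gene body. In the first *atring1a,b* list a second peak ran from 1268 bp after the start to the gene end and covered 69.0% of the gene body. Neither Col-0 list held a second peak.

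Among the 3-oxidases, *GA3OX2* had a peak in 7 of 10 lists, including both Col-0 lists, and *GA3OX1* in 7 of 10 lists and in neither Col-0 list. The *GA3OX1* peak was in both lists of *clf-29*, in *tfl2-2* and *lhp1-6*, in both lists of *atring1a,b* and in the second of *atbmi1a,b*, with scores of 54.0 to 399. Of all 32835 genes, 51 (0.155%) had peaks in 7 or 8 lists and in neither Col-0 list. *GA3OX1* had 7.88 and 2.94 CPM in Col-0 and was called in no mutant.

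*GA2OX6* had a peak in 7 of 10 lists, at different ends. In the second *clf-29*, the second *atbmi1a,b*, the first *atring1a,b* and both Col-0 lists the peak began in the 3′ part of the gene and ran over the next gene, AT1G02405; in the first Col-0 list it covered 26 bp of *GA2OX6*. In *tfl2-2*, *lhp1-6* and the first *atring1a,b* list a peak lay over the 5′ end, covering 33.5%, 23.0% and 41.9% of the gene body. *GA2OX6* had 13.5 CPM in *tfl2-2*, 12.4 CPM in *lhp1-6* and 28.0 CPM in the first *atring1a,b* library, against 22.1 and 41.6 CPM in Col-0.

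*GA20OX1*, *GA20OX2* and *GA2OX2* had a peak in 1 of 10 lists, the first of *atring1a,b*, which covered 25980991 bp, against 10771655 and 7717174 bp in Col-0. *GA2OX1* had a peak in 0 of 10 lists. Per list, 8 of 9 members carried a peak in the first *atring1a,b* list (35.9% of all genes), 5 of 9 in *tfl2-2* (26.8%) and in *lhp1-6* (23.4%), 4 of 9 in both *clf-29* lists (21.3% and 22.7%), 2 and 4 of 9 in the *atbmi1a,b* lists (17.8% and 19.1%), 4 of 9 in the second *atring1a,b* list (10.4%), and 4 and 2 of 9 in the Col-0 lists (21.4% and 15.6%).

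**Figure D3:**
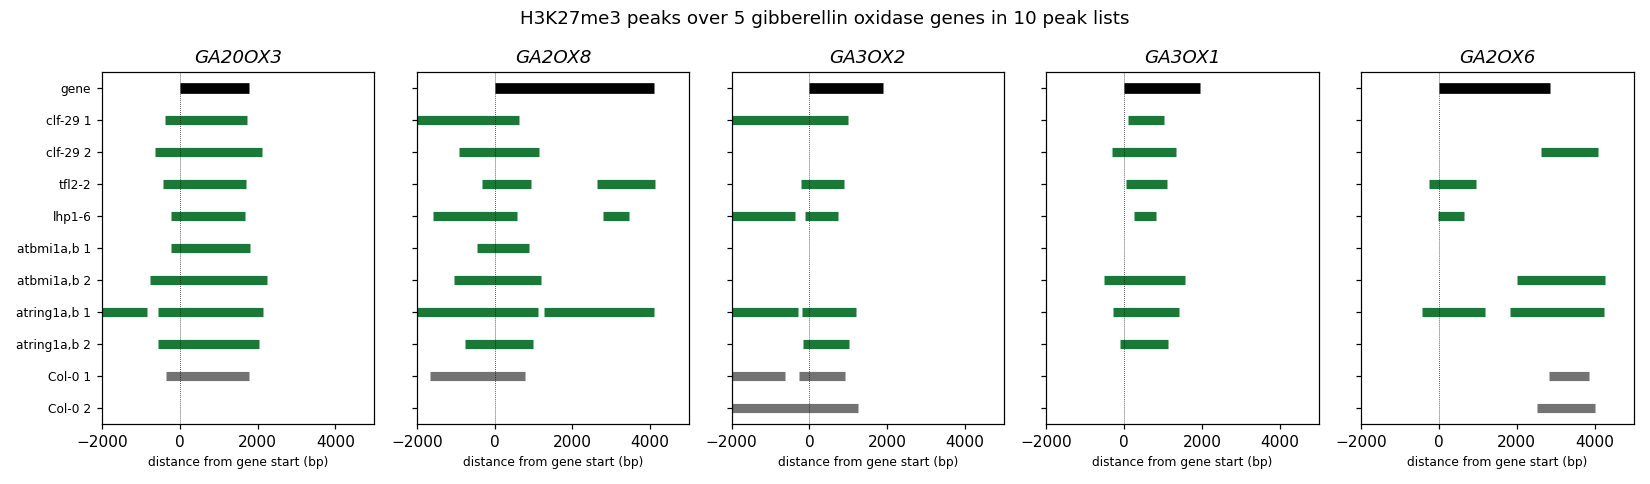
H3K27me3 peaks (bars) over 5 of the genes in the 10 peak lists, by distance from the gene start in bp, with the gene in black, mutants in green and Col-0 in grey below them. Bars reaching beyond 2000 bp upstream are cut at that point. The *GA20OX3* bars span almost the whole gene in 9 lists, and *GA3OX1* has none in Col-0.

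Of 35 other gibberellin genes, 29 were tested. In *clf-29swn-21*, 8 of 29 were called higher and 4 of 29 lower, all 12 with an adjusted p under 0.05, against 30.6% of all genes in either direction by the unadjusted rule and 24.1% by the adjusted p. The 4 with the smallest p were 2 members of the GASA family of gibberellin-regulated peptides and 2 DELLA repressors of gibberellin signalling. *GASA3* had 96.1 and 141 CPM in *clf-29swn-21*, against 0 CPM in both Col-0 libraries, at least 685-fold higher against a floor of 3 counts per library. *GASA2* had 7.08 and 10.5 CPM, against 0 CPM in both Col-0 libraries, at least 50.5-fold higher. *GASA3* and *GASA2* passed the count filter only through the *clf-29swn-21* libraries, which also gave their calls. The shares of the 29 called are thus a description and not a test. *RGL2*, a DELLA known for its role in seed germination, had 194 and 215 CPM in *clf-29swn-21*, against 6.25 and 1.08 CPM in Col-0 (log2 difference 5.58 ± 0.889, adjusted p = 0.00291, edgeR). *GAI* had 38.2 and 41.2 CPM in *clf-29swn-21*, against 74.5 and 107 CPM in Col-0 (-1.41 ± 0.241, adjusted p = 0.00385, edgeR).

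In *atring1a,b*, 2 of 29 were called higher (*RGL2* and *GASA6*) and 1 lower (*RGL3*), and in the LHP1 mutant lines 1 higher (*GASA6*) and 1 lower (*RGL3*), none with an adjusted p under 0.05. The shares of all genes called were 6.81% in *atring1a,b* and 3.37% in the LHP1 mutant lines. *GASA6* had 118 and 231 CPM in *atring1a,b* and 140 CPM in each of *tfl2-2* and *lhp1-6*, against 65.7 and 60.4 CPM in Col-0. *RGL3* had 13.2 and 4.98 CPM in *atring1a,b*, against 22.7 and 30.1 CPM in Col-0. In *clf-29*, *atbmi1a,b* and *swn-21*, 0 of 29 were called. In *clf-29swn-21* against *clf-29*, 11 of 29 were called higher and 3 lower, against 31.6% of all genes, and 11 of these had an adjusted p under 0.05, against 24.8%. In *atring1a,b* against *atbmi1a,b* 1 was called higher and 2 lower, against 5.64% of all genes.

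Of 11 transcription factors linked to gibberellin metabolism, by themselves or through close family members, 8 were called higher and 3 lower in *clf-29swn-21*. The share of all genes called was 30.6% (15.6% higher, 15% lower). Of the 11, 10 had an adjusted p under 0.05, against 24.1% of all genes. Like the other gene lists, this one was chosen with earlier results of these data known, so its share is a description and not a test. *FUS3*, a B3 factor of the seed, had 23.1 and 20.7 CPM in *clf-29swn-21*, against 0.113 and 0.0467 CPM in Col-0, and *LEC2*, a B3 factor of the embryo, had 2.61 and 4.92 CPM, against 0.0282 and 0 CPM. *LEC2* passed the count filter only through the *clf-29swn-21* libraries. *STM*, a KNOX homeobox factor of the shoot meristem, had 50.1 and 65.3 CPM in *clf-29swn-21*, against 9.04 and 6.73 CPM in Col-0. *SVP*, a MADS factor that represses flowering, fell to 27.4 and 23.0 CPM in *clf-29swn-21*, against 85.7 and 146 CPM in Col-0 (log2 difference -2.41 ± 0.371, adjusted p = 0.00250, edgeR). In *atring1a,b*, *FUS3*, *AGL15*, *KNAT2* and *LEC1* were called higher, against 6.81% of all genes, and *FUS3* had an adjusted p of 0.0388 (edgeR). In *atbmi1a,b* *AGL15*, *KNAT2* and *FUS3* were called higher, against 5.02% of all genes, and 0 of them passed the adjusted p. *FUS3* had 4.84 and 0.920 CPM in *atring1a,b*, against 0.113 and 0.0467 CPM in Col-0. In the LHP1 mutant lines *LEC2* was the 1 factor called, against 3.37% of all genes, at 0.143 CPM in *tfl2-2* and 0.118 CPM in *lhp1-6*, against 0.0282 and 0 CPM in Col-0, values of a few counts.

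The 3 tested genes most like *GA20OX3* in log2(TMM-scaled CPM + 1) over the 13 libraries were *THAS1* (Pearson r = 0.993), the thalianol synthase gene, AT4G34600 (0.989) and AT5G49120 (0.987). Those most like *GA2OX6* were *PUB18* (0.956), AT3G50340 (0.941) and *MLO4* (0.922). Those most like *GA2OX8* were *RAP2.9* (0.960), *GSTF10* (0.929) and AT1G08890 (0.903), those most like *GA2OX2* were AT2G22790 (0.956), AT2G22080 (0.936) and *RHF2A* (0.931), and those most like *GA2OX1* were *CLV3* (0.857), *UFO* (0.856) and AT5G58610 (0.835). These are descriptions over libraries that share genotypes. *GA20OX3* was high only in *clf-29swn-21*, so its likeness to other genes rests mainly on that genotype.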

How the data were processed

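RNA-seq reads were mapped to TAIR10 with TOPHAT. The authors deposited raw, whole-number gene counts for every library. The submitters' processing notes name HTSeq and DESeq. ChIP-seq reads were mapped with BWA and peaks called with MACS, library by library. Each peak carries a score that the authors deposited, and the files hold no reads. Not used here were a deposited table of the authors' own comparisons (log2 fold changes and p-values) and 5 no-antibody controls. Counts on no gene, 2.66% to 3.43% of a library, were left out. Of 33602 genes, 32835 (97.7%) matched the annotation.

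The pair of *swn-21* files was summed, a departure from the planned 14 libraries. Genes needed 10 counts at the median library size in 2 libraries and 15 in total (22244 genes, all 9 members). TMM-scaled libraries entered 1 edgeR 4.0.16 quasi-likelihood fit in R 4.3.3 with 7 groups and 8 contrasts, and p-values were adjusted over all tested genes by Benjamini-Hochberg. Alternatives were RLE scaling, no filter, DESeq2 1.42.0, a fit of the 2 groups, growth temperature as a term, a replicate block and leaving out each library, and for peaks other windows, scores and coverage. On simulated counts, 78% to 85.5% of 200 genes changed 4-fold were recovered by the unadjusted rule for the 6 contrasts against Col-0. Of the unchanged genes, 608 to 848 (2.80% to 3.91%) were also called. With an adjusted p under 0.05, 0% to 33% of the changed genes were recovered (0% for *swn-21*). Simulated libraries varied independently, whereas same-numbered libraries of the data deviated together (r up to 0.83), so these rates describe the simulation and may not hold for the data. Peak overlap needed 1 bp. Members and lists were chosen with earlier results of these data known. The genes named are all 9 members, pathway and regulator genes among the 4 smallest p per contrast, the mutated genes, and the 3 genes most like each called member.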

Additional observations from a re-analysis of the deposited data

Results flagged for a closer look

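*GA20OX3* differed between the double and the single mutant by a test of the difference itself. By the Methods these mutants also differed in medium and harvest, which cannot be told apart from genotype. It had 48.7 and 31.3 CPM in *clf-29swn-21*, against 0.488 and 0.0483 CPM in *clf-29*, a log2 difference of 6.88 (adjusted p = 0.00426, edgeR). Both *clf-29swn-21* libraries were above both *clf-29* libraries, and the call was kept in all 11 alternatives, with log2 differences of 6.14 to 9.40.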

How the results depend on the processing

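*GA20OX3* in *clf-29swn-21* against Col-0 was called in all 11 alternatives (log2 difference 7.48 to 8.22, adjusted p at most 0.0222). The log2 difference of *GA20OX3* in *atring1a,b* reversed to -0.036 without the first *atring1a,b* library (-0.036 to 3.61 over the libraries left out). Numbers of members called, with one library left out, were 0 to 1 in *clf-29*, 0 to 3 in the LHP1 mutant lines, 0 to 2 in *atbmi1a,b*, 0 to 3 in *atring1a,b*, 2 in *clf-29swn-21* each time and 0 to 3 in *swn-21* against Col-0, 1 to 2 in *clf-29swn-21* against *clf-29* and 0 to 3 in *atring1a,b* against *atbmi1a,b*. With growth temperature as a term, 2 were called in *atbmi1a,b*, 4 in *atring1a,b*, 3 in *clf-29swn-21* against *clf-29* and 1 in *atring1a,b* against *atbmi1a,b*. With a fit of the 2 groups, the counts were 0 in *atring1a,b*, 2 in *clf-29swn-21* against *clf-29* and 1 in *atring1a,b* against *atbmi1a,b*. DESeq2 and no filter each gave 3 in *clf-29swn-21* against *clf-29* and 1 in *atring1a,b* against *atbmi1a,b*, and RLE scaling gave 1 for *atring1a,b* against *atbmi1a,b*. The *swn-21* files as 2 libraries, an alternative chosen after seeing the data, gave 1 in *swn-21*, 3 in *clf-29swn-21* against *clf-29* and 1 in *atring1a,b* against *atbmi1a,b*. The cause was not tested.

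Same-numbered libraries are not said by the labels to be paired, and their deviations correlated between 0.26 and 0.83 among *atring1a,b*, *atbmi1a,b*, *clf-29* and Col-0, and between -0.13 and 0.07 with *clf-29swn-21*. With the replicate block, 0 members were called in *clf-29*, 1 in *atbmi1a,b*, 3 in *atring1a,b* against Col-0, 2 in *clf-29swn-21* against Col-0, 2 in *clf-29swn-21* against *clf-29* and 1 in *atring1a,b* against *atbmi1a,b*. The LHP1 mutant lines, which carry no replicate numbers, and *swn-21*, which is 1 library, could not be given this block. Of 90 pairs of a member and a peak list, 46.7% had a peak, and 25.6% with at least 50% of the gene body covered. Levels on TMM library sizes were 0.895 to 1.06 times those on totals. Members below about 1 CPM rest on few counts.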
